A study of Mus musculus with 6 samples.

Results

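The genes described here are 40 lysosomal genes of the mouse: hydrolases, membrane proteins, proton pump subunits and a few regulators of the lysosome. They were chosen by gene name from a list, and all 40 were found among the 23449 genes of the deposited table. The list sets no threshold on any measured value, but it was put together with results of 16IC against EIC in these data known, so every count below describes these genes and supports nothing about them. The measurements are RNA sequencing counts from 6 cultured mammary cell lines of female FVB/N mice, 3 in each of 2 groups. The EIC group (genotype EIC/WT) holds EIC 1, EIC 2 and EIC 3, titled EIC_4026, EIC_NT and EIC_7559. The 16IC group (genotype 16IC/WT) holds 16IC 1, 16IC 2 and 16IC 3, titled 16IC_1984, 16IC_4982 and 16IC_7391. Every line of both groups received doxycycline (10 ug/mL) and grew in DMEM with 10% FBS, EGF, insulin and pituitary extract. On background knowledge of the study, doxycycline induces the receptor tyrosine kinase ErbB2 (HER2) in EIC, and its splice form without exon 16 in 16IC. The labels name neither the promoter nor the animal behind any line, nor the meaning of NT, and no line was grown without doxycycline. The transgene and whatever else sets the lines apart therefore cannot be told apart. P-values weigh the difference between the groups against the spread of these 6 samples within their groups.

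Lysosomes are acidic compartments in which proteins, glycans and lipids are taken apart. A proton pump, the V-ATPase, acidifies them, most soluble hydrolases reach them by way of mannose 6-phosphate tags, and heavily glycosylated membrane proteins such as LAMP1 line their inner face. Many of their genes carry a short palindromic element in the promoter that is bound by the transcription factors TFEB, TFE3 and MITF, which mTORC1 holds in the cytoplasm when nutrients are plentiful. In mammary epithelium lysosomal proteases take part in tissue remodelling after lactation.

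The promoter element is shown first, because TFEB and TFE3 are themselves on the list. RefSeq promoters on GRCm38.p6, from 250 bases before the start of the gene to 50 after it, were matched by symbol for 36 of the 40 genes. Ctsh, Npc1, Atp6v1h and Asah1 had no entry. Nested motifs were searched on both strands. The shortest was CACGTG. Adding a base before it gave TCACGTG, and adding bases after that gave TCACGTGA and then the longest form, TCACGTGAC. TCACGTG was found in 12 of 36 genes (33.3%), in 3.77% of all 32851 promoters of this length, and in 7.0% of the 9852 genes with an entry that also passed the filter on low counts. TCACGTGAC was found in 6 of 36 (16.7%), in 0.782% of all promoters and in 1.86% of those 9852 genes. A gene with several starts counted once in the gene shares if any of its promoters matched. The following stretches are read on the strand of each gene. They show matches in Ctsd, Ctsa and Mcoln1, on which later results turn, and in 3 further genes with more than 1 copy. Capitals mark every CACGTG.

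Ctsd, chr7:142387878-142387966, minus strand: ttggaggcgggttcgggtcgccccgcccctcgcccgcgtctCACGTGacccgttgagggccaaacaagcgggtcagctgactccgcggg
Ctsa, chr2:164833719-164833772, plus strand: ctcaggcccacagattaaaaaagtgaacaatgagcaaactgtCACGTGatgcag
Mcoln1, chr8:3500433-3500518, plus strand: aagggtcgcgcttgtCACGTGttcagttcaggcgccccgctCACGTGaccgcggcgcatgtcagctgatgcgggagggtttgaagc
Lamp1, chr8:13159090-13159160, plus strand: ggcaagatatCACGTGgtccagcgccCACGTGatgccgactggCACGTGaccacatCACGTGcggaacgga
Gla, chrX:134601153-134601242, minus strand: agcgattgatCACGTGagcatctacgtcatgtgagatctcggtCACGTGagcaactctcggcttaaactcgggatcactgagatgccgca
Cln3, chr7:126583310-126583398, minus strand: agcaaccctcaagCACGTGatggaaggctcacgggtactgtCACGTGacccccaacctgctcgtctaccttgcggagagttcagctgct

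The Lamp1 stretch of 71 bases holds 4 copies of CACGTG, the Mcoln1, Gla and Cln3 stretches hold 2 each, and the Ctsd and Ctsa stretches hold 1. The searched promoters of Ctsd and Ctsa each hold another CACGTG outside the stretch shown. It begins 245 bases before the start in Ctsd and at base 6 after the start in Ctsa. Cln3 and Ctsa each have 2 promoter entries, and their matches lie in the one further along the gene. The 6 genes with TCACGTGAC were Ctsd, Ctsa, Mcoln1, Gla, Cln3 and Atp6v0d1. Lamp1, Glb1, Naglu, Gaa, Sgsh and Lgmn held TCACGTG without the longer form, and Ctsl held CACGTG alone. A match is a stretch of letters and was not tested as a binding site.

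Library totals ran from 15621563 to 17468498 counts. The lines within a group were unequal: across all tested genes, which are not independent replicates, the Spearman correlation of log2 CPM was 0.989 between 16IC 1 and 16IC 2, but 0.874 and 0.880 between 16IC 3 and these lines, and 0.917 to 0.979 among the EIC lines. A log2 fold change printed below is therefore given also without 16IC 3 where leaving it out changed a call or moved the fold by more than 1.5 times. Counts of 16IC 1 and 16IC 2 differed beyond counting error (a z beyond 1.96) in 44.7% of tested genes. The other pairs within a group stood at 60.2% to 76.6%. This z allows for counting error only, so it cannot show whether 16IC 1 and 16IC 2 are independent. They have separate titles and were kept as separate samples. Results with the pair averaged are given at the end. Krt8 and Krt18, keratins of simple epithelium, stood at 580.4 to 2652 CPM and 563 to 1999 CPM in the 6 lines. The epithelial adhesion gene Epcam stood at 0.456 to 3.79 CPM in EIC and 51.1 to 1345 CPM in 16IC. CPM, the depth-scaled count, used library sizes scaled by TMM factors.

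Per kilobase of gene length, the scale on which levels of different genes can be compared, the most abundant of the 40 over the 6 lines were Ctsd (1077 CPM per kilobase), Psap (654), Lamp1 (410.4), Sqstm1 (290.1) and Grn (281). The least abundant were Ctsk (0.241 CPM per kilobase), Ctss (0.312) and Tfeb (2.31). The 40 genes together took 0.913% of all counts in 16IC 1, 1.06% in 16IC 2 and 2.16% in 16IC 3, against 1.10%, 1.16% and 1.28% in EIC 1, EIC 2 and EIC 3. The share in 16IC 3 was above every other line and that in 16IC 1 below every other line. Without Ctsd the share in 16IC 3 was 1.36%, still the highest, and the other lines stood at 0.770% to 1.14%. In bulk RNA, fewer cells that express a gene and less of its RNA per cell cannot be told apart.

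Of the 40 genes, 38 passed the filter on low counts, and Ctss and Ctsk did not. In 16IC against EIC, the quasi-likelihood test of edgeR, adjusted by Benjamini-Hochberg over all 13698 tested genes, called 1 of the 38, Gpnmb, which was lower in 16IC. Over all tested genes it called 2.45%, with 1.25% higher and 1.2% lower. At an unadjusted p under 0.05 there were 6 of the 38, against 22.7% of all tested genes. The median log2 fold change was -0.07 over the 38 genes and -0.00 over all tested genes, with 16 of the 38 positive and 22 negative. The groups did not overlap in 9 of 38 genes, 4 higher and 5 lower in 16IC, while 31.4% of all tested genes had groups that did not overlap (17.2% higher and 14.2% lower). DESeq2 called 4 of the 40, Gpnmb and Ctsz lower and Ctsc and Mcoln1 higher. Over all genes it called 2041, which is 12.8% of the 15908 with an adjusted p. The authors' deposited table has an adjusted p under 0.05 for the same 4. Over all genes it has this for 2024, which is 8.63% of all 23449, so the 2 shares have unlike bases. limma-voom called Gpnmb alone (2.1% of all tested genes). The heat map shows the tested genes line by line.

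**Figure D1:**
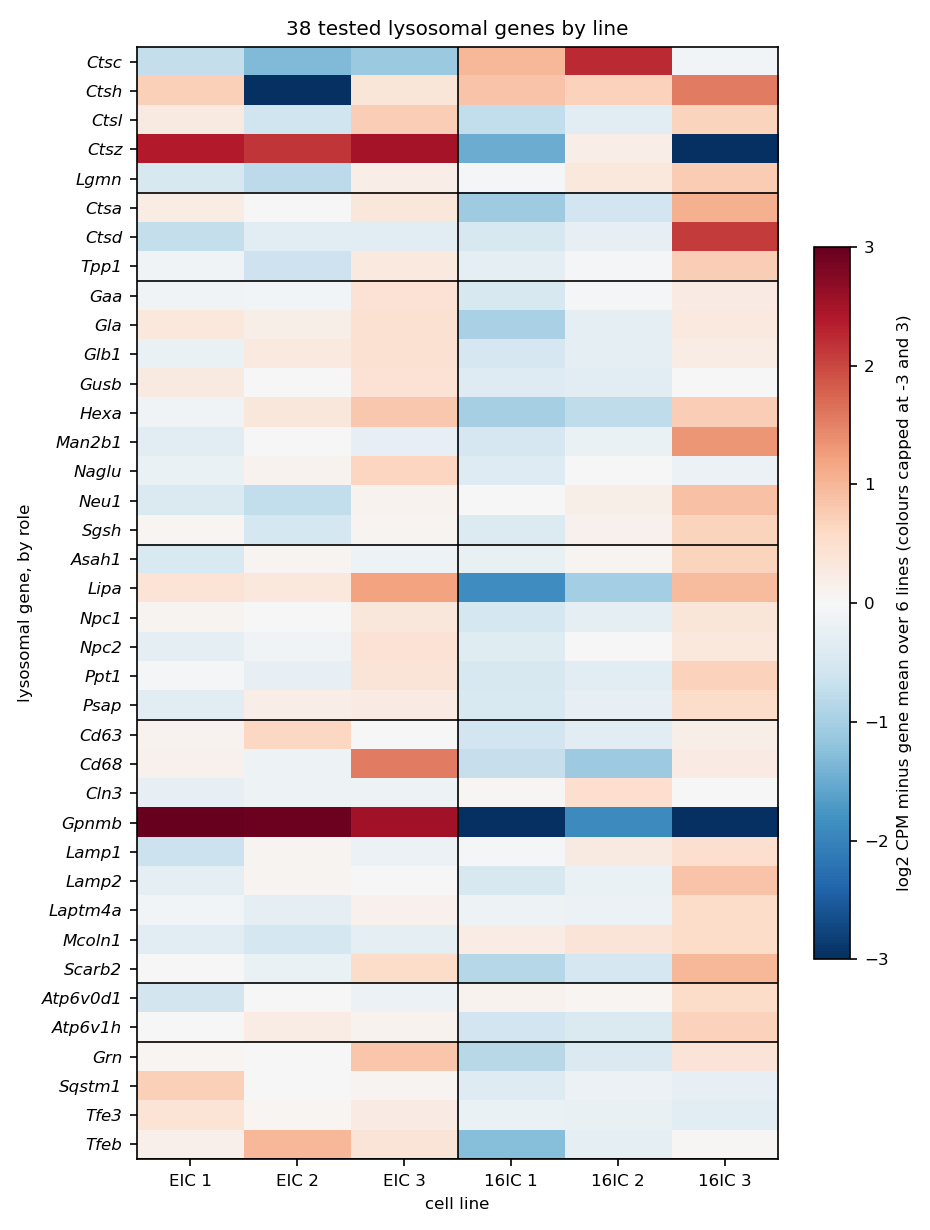
Log2 CPM (prior count 2) of the 38 tested lysosomal genes in each of the 6 lines, minus the mean of the gene over the lines, with genes in rows ordered by role (black lines separate the roles), lines in columns and colours capped at 3 in both directions. Gpnmb and Ctsz are high in the 3 EIC lines, Ctsh is low in EIC 2, and 33 of the 38 rows are lowest in 16IC 1, highest in 16IC 3 or both.

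Gpnmb (ENSMUSG00000029816, chromosome 6, 49036546 to 49070929 on mm10) encodes a glycoprotein of lysosomes and melanosomes and of the cell surface. It had 91.5, 43.9 and 32.7 CPM in EIC 1, 2 and 3 and 0.120, 1.41 and 0.584 CPM in 16IC 1, 2 and 3. Every EIC line lay above every 16IC line, and the 16IC values rest on 2, 23 and 9 counts. The group means were 56.0 ± 31.2 and 0.704 ± 0.652 CPM (SD, n = 3), a 79.6-fold difference, with a log2 fold change of -6.30 (SE 0.91, edgeR adjusted p = 0.0389). The call held without 16IC 3 (edgeR adjusted p = 0.0258) and was lost without EIC 1 (0.145), EIC 2 (0.0523), EIC 3 (0.151), 16IC 1 (0.135) or 16IC 2 (0.134), where its log2 fold change was -7.30. Over all genes edgeR called 0 without EIC 1, EIC 3 or 16IC 2, 5 without 16IC 1 and 282 without EIC 2. A lost call was thus not particular to Gpnmb in most of these fits, and its log2 fold change stayed between -7.30 and -5.76 under every alternative. The authors' deposited table lists -6.34 for it on the log2 scale and 7.82e-14 as adjusted p.

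Among the cysteine cathepsins and legumain, the endopeptidases and exopeptidases that use an active-site cysteine, edgeR and limma-voom called 0 of 5 (2 at an unadjusted p under 0.05 in each), DESeq2 called Ctsz and Ctsc, and 3 of 5 had a positive log2 fold change. Ctsz (ENSMUSG00000016256, chromosome 2, 174427493 to 174439039), a carboxypeptidase, had 250.3, 212 and 271 CPM in EIC 1 to 3. In 16IC 1 to 3 it had 16.99, 54.9 and 0.778 CPM, so that the groups did not overlap and the 16IC lines themselves spread widely, down to 12 counts in 16IC 3. The edgeR estimate was -3.33 on the log2 scale (SE 1.22, adjusted p = 0.177). Leaving out 16IC 3 gave -2.77, which was called (edgeR adjusted p = 0.0338), and leaving out 16IC 2 gave -4.78.

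Ctsc (ENSMUSG00000030560, chromosome 7, 88278085 to 88310888) encodes the dipeptidyl peptidase that activates granule serine proteases. It had 8.67, 5.59 and 6.47 CPM in EIC 1 to 3 and 28.6, 67.8 and 13.4 CPM in 16IC 1 to 3. The groups did not overlap, and 16IC 3 was the 16IC line nearest to EIC. The edgeR estimate was 2.40 on the log2 scale (SE 0.61, adjusted p = 0.0917). Leaving out 16IC 3 gave 2.80, which was called (edgeR adjusted p = 0.0194), and leaving out 16IC 2 gave 1.60.

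Ctsh, an aminopeptidase gene, had 109, 3.55 and 85.2 CPM in EIC 1 to 3 and 120.3, 107 and 196 CPM in 16IC 1 to 3. EIC 2 stood apart from all the other lines, and EIC 1 lay above 16IC 2, so the groups overlapped (log2 fold change 1.10, SE 1.01, edgeR adjusted p = 0.573). Ctsl, an endopeptidase gene, spread from 307 CPM in 16IC 1 to 858 CPM in EIC 3, with 811 CPM in 16IC 3. Lgmn, which encodes the asparagine-specific protease legumain, had its lowest value in EIC 2 (28.4 CPM) and its highest in 16IC 3 (83.4 CPM). Ctss and Ctsk, known for macrophages and for osteoclasts respectively, were close to absent. Ctss had 37 counts in EIC 2, 0 counts in 16IC 1 and 16IC 2, and 1, 1 and 3 counts in EIC 1, EIC 3 and 16IC 3. A count of 0 allows up to 3 counts, which is 0.181 CPM in 16IC 1 and 0.184 CPM in 16IC 2, and covers counting error only. Ctsk had 1 to 18 counts a line, the most in 16IC 3.

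Among the 3 other proteases edgeR, DESeq2 and limma-voom called 0 (0 at an unadjusted p under 0.05 in each). Ctsd (ENSMUSG00000007891, chromosome 7, 142375911 to 142388038), the aspartic protease cathepsin D, had 1145, 1485 and 1502 CPM in EIC 1 to 3, 1347 and 1595 CPM in 16IC 1 and 16IC 2, and 8118 CPM in 16IC 3. The other 5 lines thus lay close together, and 16IC 3 was 5.52-fold above the mean of 16IC 1 and 16IC 2. It was the fourth most counted gene in 16IC 3 and ranked 34 to 51 in the other lines. Between the groups edgeR gave a log2 fold change of 1.42 (SE 0.74, adjusted p = 0.315), and 0.09 (adjusted p = 0.803) when 16IC 3 was left out. Ctsa, the carboxypeptidase that also protects beta-galactosidase and neuraminidase, had 296, 251 and 322 CPM in EIC 1 to 3, 121 and 169 CPM in 16IC 1 and 16IC 2, and 531 CPM in 16IC 3. 16IC 1 and 16IC 2 were below all EIC lines and 16IC 3 above all of them. The edgeR estimate was -0.08 on the log2 scale (adjusted p = 0.947). Leaving out 16IC 3 gave -1.002, which was called (edgeR adjusted p = 0.0418). Tpp1, a tripeptidyl peptidase gene, ran from 155 CPM in EIC 2 to 395 CPM in 16IC 3.

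The glycosidases and the sulfatase Sgsh, which take sugars and sulfate off glycoproteins, glycolipids and glycosaminoglycans, gave 0 calls among 9 genes in edgeR (1 at an unadjusted p under 0.05), in DESeq2 and in limma-voom (0 in each), and the groups overlapped in all 9. All 9 were higher in 16IC 3 than in the mean of 16IC 1 and 16IC 2. Hexa, the alpha subunit of beta-hexosaminidase, had 173, 235 and 328 CPM in EIC 1 to 3 against 92.9, 109 and 311 CPM in 16IC 1 to 3, and Man2b1, an alpha-mannosidase gene, had 71.9, 89.9 and 77.3 CPM against 63.7, 78.8 and 227 CPM. In Hexa 16IC 1 and 16IC 2 were below EIC and 16IC 3 was within its range, while in Man2b1 only 16IC 3 left the EIC range upwards and 16IC 1 lay below it. Glb1 and Gla, the beta-galactosidase and alpha-galactosidase genes, and Gusb, the beta-glucuronidase gene, had both 16IC 1 and 16IC 2 below every EIC line. Neu1, the neuraminidase gene, had 44.3 to 78.8 CPM in EIC and 74.2 to 135 CPM in 16IC. Naglu and Gaa, which act on heparan sulfate and glycogen, stayed within 77.2 to 158 CPM and 252 to 476 CPM.

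Among the 6 genes of lipid handling, edgeR called 0 (0 at an unadjusted p under 0.05), DESeq2 and limma-voom called 0, and all 6 were higher in 16IC 3 than in the mean of 16IC 1 and 16IC 2. Lipa, the acid lipase that frees cholesterol from its esters, had 52.5, 49.0 and 91.3 CPM in EIC 1 to 3, 10.8 and 19.5 CPM in 16IC 1 and 16IC 2, and 75.8 CPM in 16IC 3. The third 16IC line was inside the EIC range and 5.001-fold above the mean of the other 16IC lines. The edgeR estimate was -0.86 on the log2 scale (SE 0.73, adjusted p = 0.536). Leaving out 16IC 3 gave -2.09, which was called (edgeR adjusted p = 0.0369). Psap, the precursor of the saposins that present glycolipids to hydrolases, ran from 1269 CPM in 16IC 1 to 2546 CPM in 16IC 3. Npc1 and Npc2, which pass cholesterol out of the lysosome, lay between 67.1 and 124 CPM and between 223 and 386 CPM. Asah1, the acid ceramidase gene, and Ppt1, a thioesterase gene, were both highest in 16IC 3 (331 and 171 CPM).

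Of the other 8 membrane proteins besides Gpnmb, edgeR called 0, with Mcoln1 at an unadjusted p under 0.05, DESeq2 called Mcoln1, limma-voom called 0, and the groups of Mcoln1 and Cln3 did not overlap. Mcoln1 (ENSMUSG00000004567, chromosome 8, 3500457 to 3515232), the calcium channel of the lysosomal membrane, had 61.1, 53.5 and 63.3 CPM in EIC 1 to 3 and 91.0, 102 and 115 CPM in 16IC 1 to 3. Each 16IC line lay above each EIC line. The edgeR estimate was 0.79 on the log2 scale (SE 0.17, adjusted p = 0.0657), and it was 0.70 and called when 16IC 3 was left out (adjusted p = 0.0423). Cln3, a membrane protein gene mutated in juvenile Batten disease, had 44.1, 47.3 and 47.4 CPM in EIC 1 to 3 and 54.2, 75.1 and 52.5 CPM in 16IC 1 to 3 (log2 fold change 0.39, edgeR adjusted p = 0.303). Cd68, a scavenger receptor family gene best known from macrophages, had 17.5, 14.3 and 47.6 CPM in EIC 1 to 3 and 9.76, 7.40 and 19.0 CPM in 16IC 1 to 3 (log2 fold change -1.14, edgeR adjusted p = 0.313). The groups overlapped, EIC 3 was the highest line, and the estimate was -0.42 without EIC 3. Lamp1 and Lamp2, the major membrane glycoproteins, and Scarb2, the receptor that carries glucocerebrosidase, were highest in 16IC 3 (1516, 868 and 484 CPM). Laptm4a was highest there too (603 CPM), while the tetraspanin gene Cd63 was highest in EIC 2 (827 CPM).

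**Figure D2:**
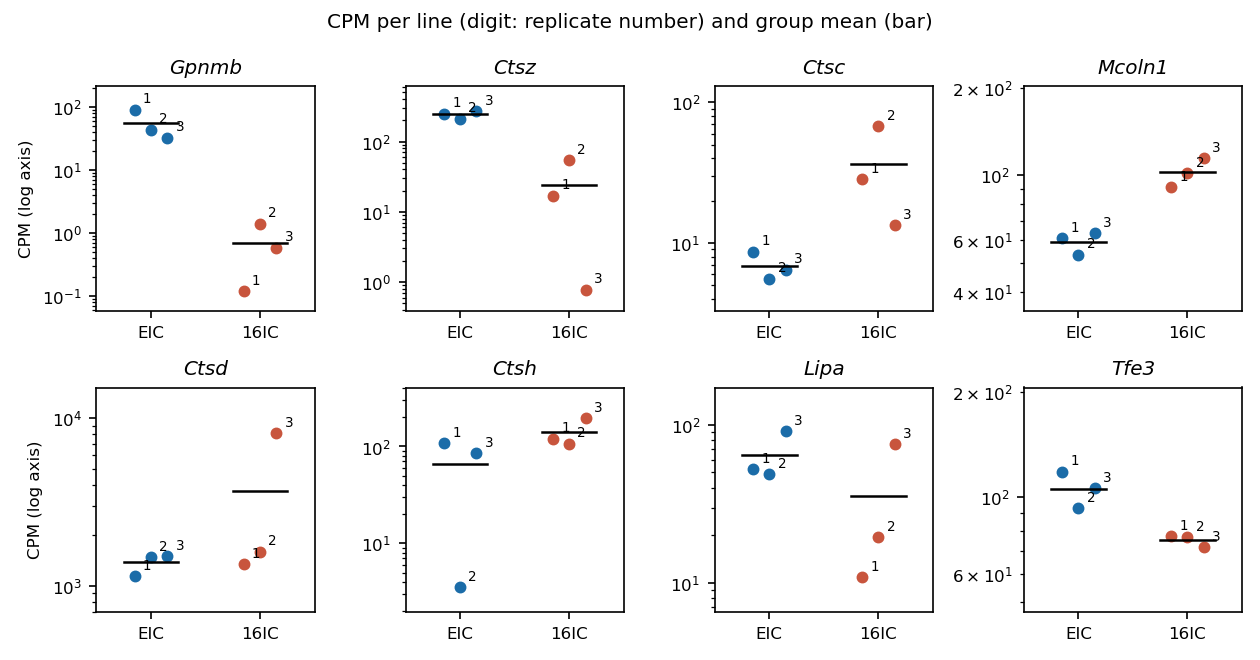
CPM (log axis) of 8 lysosomal genes in the 3 EIC and 3 16IC lines, with each point marked by its replicate number and a bar at the group mean. Gpnmb, Ctsz, Ctsc, Mcoln1 and Tfe3 have groups that do not overlap, 16IC 3 stands apart in Ctsd (8118 CPM) and EIC 2 in Ctsh (3.55 CPM).

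The regulators and cargo genes all had negative log2 fold changes, and edgeR (1 at an unadjusted p under 0.05), DESeq2 (2) and limma-voom (2) called 0 of the 4. Tfe3 had 118, 93.0 and 106 CPM in EIC 1 to 3 and 77.4, 76.5 and 71.7 CPM in 16IC 1 to 3 (log2 fold change -0.49, SE 0.16, edgeR adjusted p = 0.138). Tfeb had 13.1, 23.7 and 15.4 CPM against 4.76, 9.55 and 12.1 CPM (edgeR estimate -0.98 in log2, SE 0.43, adjusted p = 0.245). Both had groups that did not overlap, and within 16IC Tfeb was highest and Tfe3 lowest in 16IC 3. Sqstm1, the autophagy receptor p62, had 1539, 957 and 995 CPM in EIC 1 to 3 and 717, 833 and 800.4 CPM in 16IC 1 to 3 (log2 fold change -0.57, edgeR adjusted p = 0.264). Grn, the secreted precursor progranulin whose fragments act in the lysosome, ran from 509 CPM in 16IC 1 to 1612 CPM in EIC 3. For the proton pump, Atp6v0d1 had 63.9, 94.0 and 81.9 CPM in EIC 1 to 3 and 99.5, 97.6 and 137 CPM in 16IC 1 to 3 (log2 fold change 0.48, edgeR adjusted p = 0.270), and Atp6v1h had 56.3, 62.5 and 135 CPM in 16IC 1 to 3 around EIC values of 82.6 to 98.3 CPM.

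The level of the list also differed between lines of the same group. The median over the 38 genes of log2 CPM (prior count 2), centred on the mean of each gene, was 0.55 in 16IC 3 and 0.32 in EIC 3, 0.01 in EIC 2, -0.06 in EIC 1, -0.21 in 16IC 2 and -0.47 in 16IC 1. Over all tested genes the same median lay between -0.01 and 0.03 in every line. In 16IC 3, 19 of 38 genes (50%) had their highest value, against 25.5% of all tested genes, and in EIC 3 it was 12 (31.6% against 15.8%). In 16IC 1, 22 of 38 genes (57.9%) had their lowest value, against 16.0% of all tested genes, and none its highest. EIC 2 held the highest value of 2 genes, Cd63 and Tfeb, and the lowest of 8.

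**Figure D3:**
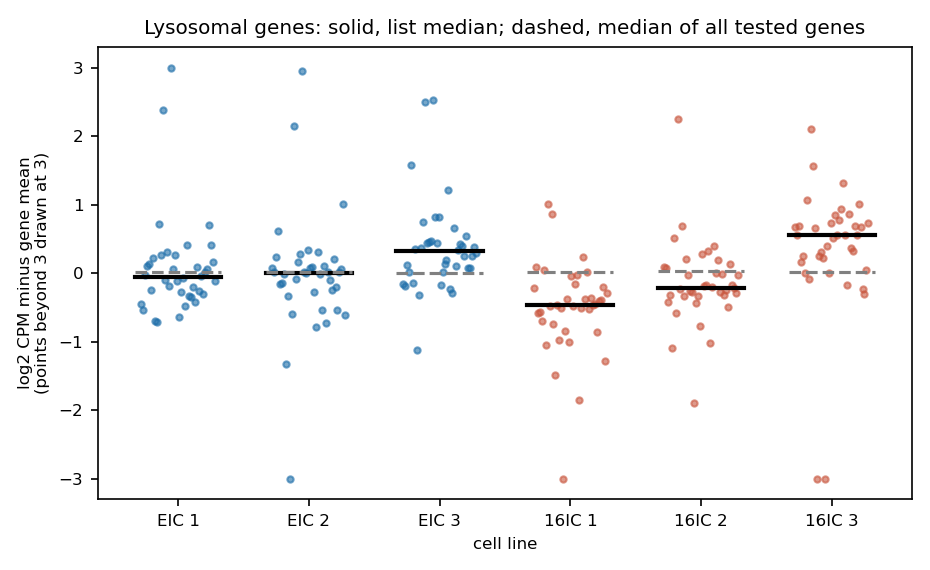
Log2 CPM minus the mean of the gene over 6 lines for each of the 38 tested lysosomal genes (points), with the list median (solid bar) and the median of all tested genes (dashed bar) in each line; points further than 3 from the mean are drawn at 3. The list median is highest in 16IC 3 (0.55) and lowest in 16IC 1 (-0.47), and the groups overlap.

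Without 16IC 3, edgeR called 6 of 38 genes, with Gpnmb, Ctsz, Ctsa and Lipa lower and Ctsc and Mcoln1 higher, against 13.4% of the 14262 genes tested in that fit (6.6% higher and 6.82% lower). The groups did not overlap in 22 of 38 genes, against 51.9% of those 14262, with 18 lower (25.1% of all) and 4 higher (26.7%). The median log2 fold change was -0.44 over the 38 genes and -0.02 over all. Both 16IC 1 and 16IC 2 were below every EIC line in 18 of 38 genes (47.4%, against 25.1% of the 13698 tested genes) and above every EIC line in 4 (10.5%, against 26.3%). In 5 genes, Ctsa, Npc1, Scarb2, Ppt1 and Atp6v1h, the pair was below every EIC line while 16IC 3 was above every EIC line (13.2%, against 4.64% of all tested genes).

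Set against the mean log2 CPM of 16IC 1 and 16IC 2, line 16IC 3 was higher in 34 of 38 genes (89.5%, against 49.6% of all tested genes), with a median difference of 0.77 (-0.01 over all). It was more than 2-fold higher in 12 genes (31.6%, against 16.0%) and more than 2-fold lower in 2, Ctsz and Ctsc. Cln3 and Tfe3 were the other 2 genes that were not higher. Gpnmb was higher by 0.21 on the log2 scale only, on 2, 23 and 9 counts. In CPM its value in 16IC 3 was 0.764 times the mean of the pair. This is 1 line against 2, with no replicate of 16IC 3 and no test. The pair was not alike throughout either, since 16IC 2 exceeded 16IC 1 in 33 of 38 genes (86.8%, against 54.6%), with a median difference of 0.30. In EIC, EIC 3 exceeded EIC 1 in 32 of 38 genes (84.2%, against 49.2%), with a median difference of 0.29.

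Most genes with the promoter motif TCACGTG, and most without it, were higher in 16IC 3. The 12 genes with TCACGTG had a median of 0.55 for 16IC 3 minus the mean of the pair, and 11 of them were higher in 16IC 3. The 22 tested genes without it had a median of 0.86, and 19 of them were higher. They do not all lack a similar element. Ctsl held CACGTG alone, and Scarb2, Ppt1, Grn and Tpp1 held a variant that was also searched, TCATGTG. That variant was found in 7 of 36 genes (19.4%) and in 2.62% of the 9852 genes that passed the filter. The difference ran from -0.28 in Cln3 to 2.47 in Ctsd among genes with the motif, and from -5.09 in Ctsz to 2.37 in Lipa among those without. In 16IC against EIC the median log2 fold change was 0.35 with the motif and -0.36 without it, and without 16IC 3 these medians were 0.04 and -0.60. With each line left out in turn they ran from 0.04 to 0.50 with the motif and from -0.60 to -0.11 without it. These medians describe the genes and were not tested.

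Other genes of the pathway, in lists named by role, gave 1 edgeR call. These lists too were chosen with earlier results of these data known, so their counts are a description and support nothing. Of 27 tested lysosomal membrane proteins outside the 40, Ctns, the cystine exporter, rose from 29.7, 25.2 and 27.2 CPM in EIC 1 to 3 to 112, 159 and 179 CPM in 16IC 1 to 3 (log2 fold change 2.46, SE 0.23, edgeR adjusted p = 0.0249). limma-voom called Ctns alone in that list, and DESeq2 called Ctns and Slc29a3. EdgeR called 0 of 32 further hydrolases, 18 V-ATPase subunits, 19 TFE and mTORC1 genes, 17 sorting genes, 32 autophagy genes and 6 cathepsin inhibitors, where 3, 3, 7, 3, 3 and 3 had an unadjusted p under 0.05. In these 6 lists DESeq2 called 1, 2, 2, 2, 2 and 2, and limma-voom 0 in each. Over all tested genes edgeR called 2.45%, and 22.7% had an unadjusted p under 0.05. DESeq2 called 12.8% of all genes with an adjusted p, and limma-voom 2.1% of all tested genes. The median log2 fold changes of these lists lay between -0.09 and 0.92. Mitf, the third member of the TFEB family measured here, had 30.9, 16.3 and 31.6 CPM in EIC 1 to 3 and 4.70, 6.98 and 8.76 CPM in 16IC 1 to 3, with every EIC line above every 16IC line (-1.95 on the log2 scale, edgeR adjusted p = 0.0592). Zkscan3, a repressor of autophagy genes, had 30.5 to 53.8 CPM in EIC and 92.8 to 162 CPM in 16IC (1.698 on the log2 scale, edgeR adjusted p = 0.0540).

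Line 16IC 3 was also the higher one in most genes of these lists, which, like the 40, were chosen with results known. It exceeded the mean of 16IC 1 and 16IC 2 in 25 of 32 further hydrolases (median difference 0.71), in 23 of 27 further membrane proteins (0.55), in 14 of 18 V-ATPase subunits (0.63), in 15 of 19 TFE and mTORC1 genes (0.43) and in 26 of 32 autophagy genes (0.50). The smallest shares were in the sorting genes (12 of 17) and the cathepsin inhibitors (4 of 6). Some single genes, picked after their values were seen, stood far from the pair in either direction. Ctsb, the cysteine cathepsin B, had 254 and 343 CPM in 16IC 1 and 16IC 2 and 1927 CPM in 16IC 3, and 639, 1566 and 917 CPM in EIC 1 to 3. Sort1, a sorting receptor, had 25.8 and 28.8 CPM in 16IC 1 and 16IC 2 and 217 CPM in 16IC 3, with 10.2 to 22.1 CPM in EIC. Cst3, the secreted inhibitor cystatin C, had 212 and 230.5 CPM and then 1681 CPM in 16IC 3. All 3 were highest in 16IC 3, as Ctsd was. The largest fold of these lists was in Rragd, of the TFE and mTORC1 genes, whose CPM in 16IC 3 was 120.85 times the mean of the pair. Its line values are not given here. The fold alone does not show whether the pair was near 0 counts or how these lines stood against EIC. In the other direction, Atg9b, an autophagy gene, had 947.7 and 1060 CPM in 16IC 1 and 16IC 2 and 50.6 CPM in 16IC 3. Ctsw, a cathepsin gene known from lymphocytes, had 21.9 and 24.7 CPM in 16IC 1 and 16IC 2 and 0.389 CPM in 16IC 3, within its EIC values of 0.249 to 0.913 CPM. Cst6, a cystatin gene, had 79.3 and 64.3 CPM and then 10.7 CPM in 16IC 3.

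**Figure D4:**
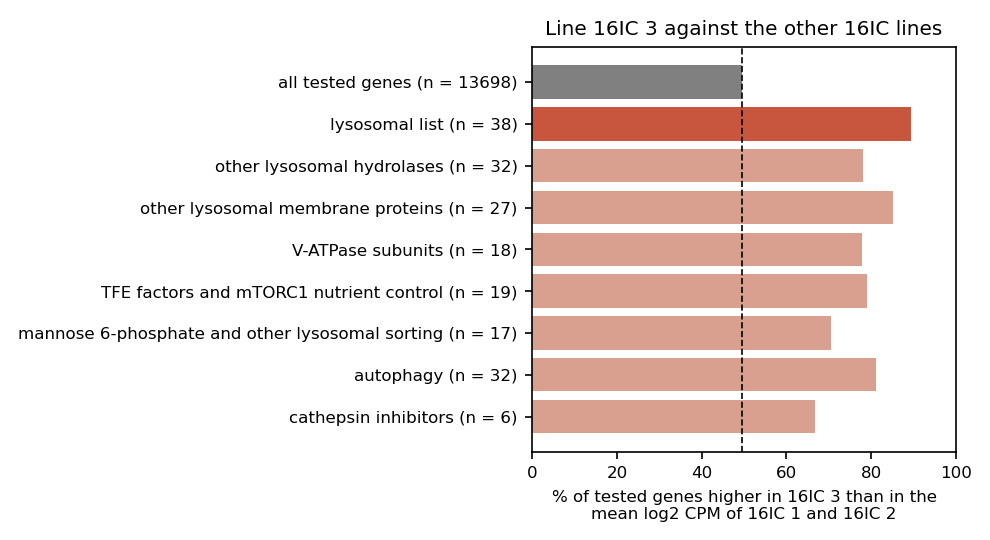
Percentage of tested genes (horizontal axis) that were higher in 16IC 3 than in the mean log2 CPM of 16IC 1 and 16IC 2, for all tested genes, the lysosomal list and 7 lists of related genes, with the number of tested genes of each. The lysosomal list stands at 89.5% and the related lists above the 49.6% of all tested genes (dashed line). All lists were chosen with earlier results of these data known.

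Other measures differed in the same line. Mitochondrially encoded genes took 3.39% of counts in 16IC 3, 2.0% and 2.22% in 16IC 1 and 16IC 2, and 0.926% to 1.5% in EIC. The 12 epithelial markers summed to 1720 CPM in 16IC 3, 9813 and 9854 CPM in 16IC 1 and 16IC 2, and 2586 to 3343 CPM in EIC. Among the 11 that were tested in 16IC against EIC, 10 had a positive log2 fold change and 1 a negative one, from -8.36 to 10.4. EdgeR called Esrp1 higher and limma-voom called 0. DESeq2 called 7, listed here without their direction (Cdh1, Cldn4, Cldn7, Epcam, Esrp1, Grhl2 and Krt14). Over all genes edgeR called 2.45%, DESeq2 12.8% and limma-voom 2.1%. Of 10 macrophage markers in the table, 8 were under 1 CPM in every line, and the sum, 60.1 to 208 CPM in EIC and 78.7 to 354 CPM in 16IC, was nearly all Cd14, which had 352 CPM in 16IC 3. The other marker that passed the filter, Mrc1, had 43, 23 and 41 counts in EIC 1 to 3 and 0 counts in every 16IC line, and was called lower in 16IC by edgeR (adjusted p = 0.0407), DESeq2 and limma-voom, the direction of Gpnmb. In CPM it was at most 2.55, in EIC 3. Defining leukocyte markers were at or near 0: Ptprc was at most 0.306 CPM and Itgam at most 0.0612 CPM. The 7 fibroblast markers in the table summed to 36.1 CPM in 16IC 3, 11.4 and 11.6 CPM in the other 16IC lines and 12.2 to 106 CPM in EIC. This sum covers genes that moved in both directions. Of 5 tested, 3 had a positive log2 fold change and 2 a negative one, from -3.01 to 3.05. DESeq2 called Col1a1, Pdgfra and Postn, while edgeR and limma-voom called 0. The 7 osteoclast markers in the table summed to 72.6 to 99.2 CPM in 16IC and 81.0 to 94.8 CPM in EIC. Calcr was at most 0.122 CPM, while Acp5 stood at 22.3 to 52.3 CPM, and edgeR, DESeq2 and limma-voom called 0 osteoclast markers. Of 3 melanocyte markers in the table, which matter for Gpnmb, Pmel was at most 1.68 CPM and Mlana at most 1.23 CPM, while Sox10, also a gene of mammary cells, had 178 to 257 CPM in 16IC and 0.0570 to 14.3 CPM in EIC. DESeq2 called Sox10, while edgeR and limma-voom called 0 melanocyte markers. The part of mitochondrial share, epithelial markers, Cd14 and Mrc1 in the lysosomal values was not tested.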

How the data were processed

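RNA sequencing of 6 lines, 3 EIC and 3 16IC, was used. Per the submitters' processing notes the tools include STAR and HTSeq with Trimmomatic, limma and edgeR, and the builds are GRCm38 and mm10. Roles, versions and strandedness are not stated there. Deposited by the authors were whole-number counts per gene and line, a normalised signal (the count divided by a size factor), FPKM, gene lengths, and their own log2 fold change, p-value and adjusted p-value per gene. The signal and FPKM were not used.

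From the counts, edgeR 4.0.16 (R 4.3.3) removed low genes with filterByExpr (minimum count 10), scaled libraries with TMM and tested 16IC against EIC over all genes at an adjusted p under 0.05. SE is the log2 fold change divided by the root of its F. Log2 CPM used a prior count of 2. limma 3.58.1 and DESeq2 1.42.0 gave alternatives beside other scalings and filters, leaving out each line and averaging 16IC 1 with 16IC 2, and the edgeR step was tested on simulated data. The members and lists were chosen with earlier results of these data known. All 40 members may be named. Values per line are given for those called, those with groups that do not overlap, the 8 of widest range, Tfeb, Tfe3 and Gpnmb, and others by their range. Up to 4 genes of the smallest p were open to naming from each other list, and Ctsb, Sort1, Cst3, Rragd, Cst6, Atg9b and Ctsw, as well as the line values of Ctsa, Hexa, Man2b1 and Atp6v1h, were picked after their values were seen. Coordinates are those of the table.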

Additional observations from a re-analysis of the deposited data

How the results depend on the processing

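No paired analysis was possible because the titles number the lines separately and nothing in the labels pairs an EIC line with a 16IC line. All genes called by edgeR numbered 335; without a filter on low counts it was 223, with DESeq2 2041, at an adjusted p under 0.1 1184, and with 16IC 1 and 16IC 2 averaged to 1 sample 0 in edgeR (2257 at an unadjusted p under 0.05). Leaving out each line in turn gave 0 to 1913. Of the lysosomal genes 1 was called; DESeq2 called 4, the threshold of 0.1 gave 3, the averaged pair gave 0 in edgeR (4 at an unadjusted p under 0.05), and leaving out a line gave 0 to 6. Genes whose groups did not overlap numbered 9, and 11 to 22 with a line left out (28.9% to 57.9%), while over all tested genes the share was 31.4% and then 36.2% to 51.9%. The median log2 fold change ran from -0.44 without 16IC 3 to 0.13 without 16IC 1. Of 38 tested genes, 13 had the opposite sign under at least 1 of 13 alternatives. Ctsa, at -0.08, was 0.22 with the pair averaged and ran from -1.002 to 0.27 with a line left out. Gpnmb also lost its call with the pair averaged (adjusted p = 0.0857) and kept it under the other scalings, filters and tools. Promoters cut to 150 bases before the start held TCACGTG in 11 of 36 genes and TCACGTGAC in 5. Line levels under a prior count of 0.5 or DESeq2 size factors stayed within the SD over lines. Depth limits Ctss and Ctsk, which were close to absent. It also limits the 16IC values of Gpnmb (2, 23 and 9 counts) and Ctsz in 16IC 3 (12 counts), while both genes were well counted in EIC. The cause of these shifts was not tested.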
